A study of Mus musculus with 9 samples.

Results

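The genes described here are 10 negative regulators of MAP kinase signalling, measured in mouse CD4 T cells. Dusp1, Dusp2, Dusp4, Dusp5, Dusp6 and Dusp10 encode dual specificity MAP kinase phosphatases, Spry1 and Spry2 encode Sproutys, and Spred1 and Spred2 encode Sprouty-related proteins. They were taken by gene symbol, and all 10 were found among the 23171 gene rows of the table. The study asked how antigen-specific CD4 T cells that dendritic cells had activated in vivo, and that express different levels of Hopx, a small homeodomain protein, respond to a second stimulus.

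The 9 libraries fall into 3 groups of 3: Hopx high, Hopx low and naive. All libraries were made from CD4 T cells of C57BL6 mice, taken from spleen and lymph nodes. According to the labels' protocols, mice received intraperitoneal chimeric antibodies that carry antigen to dendritic cells 5 days before sorting, and the sorted T cells were restimulated in vitro with antigen-presenting cells for 12 h, sorted again and lysed for RNA. The labels give this one treatment text for every library, naive ones included. They state neither how the Hopx level was read for the sort, nor the antigen, a transgene or the age of the mice. Whether each library stands for its own animal is also unstated. The p-values thus rest only on the spread between these samples, which may be technical. The test takes each gene's spread partly from that of other genes.

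A T cell receptor signal passes through Ras, Raf and MEK to the MAP kinase ERK, and through parallel cascades to JNK and p38. Dual specificity phosphatases switch these kinases off by removing phosphate from both the threonine and the tyrosine of the activation loop. Sprouty and Spred proteins act further upstream and restrain the activation of Ras and Raf. Several of these genes are themselves induced by ERK signalling, so that their RNA is widely used as a readout of recent pathway activity as well as of its brakes.

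The libraries held 203 to 800 megabases (Mb) of gene coverage in Hopx high, 330 to 442 Mb in Hopx low, and 63.3, 86.5 and 289 Mb in naive replicates 1, 2 and 3. Values below are summed base coverage of a gene per Mb of the library's total. Naive replicates 1 and 2 differed by less than the sampling noise and were counted as 1 sample, so naive means have n = 2. The level of Hopx RNA was 8.95, 7.79 and 4.89 in the Hopx high libraries, 3.32, 6.90 and 3.29 in the Hopx low libraries, and 0, 0 and 1.64 in the naive libraries. Thus Hopx high replicate 3 lay below Hopx low replicate 2 for the gene that names the groups. The non-coding RNA Gas5 took 1.16% to 40.0% of a library's coverage, and is for that reason left out of the totals in one of the alternatives. Xist did not pass 0.400 bases per Mb in Hopx libraries and was at 76.1 to 263 in naive libraries, while the 4 Y-linked genes read (Ddx3y, Eif2s3y, Kdm5d and Uty) were at 17.7 to 85.5 in Hopx libraries and did not pass 0.300 in naive libraries. The sex of the mice and the naive state therefore cannot be told apart. The T cell gene Cd4 was at 228 to 409 bases per Mb in Hopx high, 278 to 501 in Hopx low and 101 to 305 in naive libraries, and Cd3e was detected in every library too. Summed over 14 CD4 T cell genes the level was 2855 to 5357 in Hopx high and 3604 to 5629 in Hopx low. In naive replicates 1, 2 and 3 the sum was 2847, 3504 and 4622. Single genes of the list differed there, with Cd28 at 43.3, 55.0 and 581 and Zap70 at 782, 1004 and 832. The 2 naive samples correlated with each other across genes at r = 0.723. Naive replicate 3 correlated more than that with every Hopx library (0.731 to 0.891, highest with Hopx low replicate 3). The mean of naive replicates 1 and 2 did so with all but Hopx high replicate 3 (0.711), and was highest with Hopx low replicate 1 (0.875). The members' calls against naive are therefore also given without naive replicate 3.

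Per kilobase of exon, the scale on which genes can be compared, the 10 genes spanned a wide range of levels. Dusp2 averaged 343 ± 128 bases per Mb per kb in Hopx high, 301 ± 135 in Hopx low and 241 ± 54.2 in naive cells (SD, n = 3, 3 and 2). Spry1 averaged 137 ± 89.2 in Hopx high, 239 ± 75.0 in Hopx low and 153 ± 42.6 in naive cells, and Dusp5 averaged 112 ± 55.8, 249 ± 74.4 and 251 ± 94.5 in the same groups. These 3 genes had the highest means in every group, and their order among themselves lay within their spread in Hopx low. Dusp4 was the next gene in both Hopx groups, at 90.2 ± 7.19 in Hopx high and 62.8 ± 5.03 in Hopx low, within the spread of Spry1 and Dusp5 in Hopx high, but stood at 10.8 ± 1.80 in naive cells, beside Dusp6 at 10.3 ± 0.961. Dusp1 averaged 31.5 ± 12.5 in Hopx high, 51.2 ± 27.8 in Hopx low and 51.6 ± 18.7 in naive cells. In Hopx high Dusp10, at 7.40 ± 4.20, lay near Spred1, at 6.60 ± 1.71, and Spred2, at 5.46 ± 1.25. In Hopx low and naive cells Dusp10, at 21.6 ± 2.05 and 35.1 ± 17.2, stood above both Spreds. Spry2 was the lowest of the 10 in every group, at 1.46 ± 1.41 in Hopx high, 1.64 ± 1.16 in Hopx low and 1.30 ± 1.84 in naive cells.

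**Figure D1:**
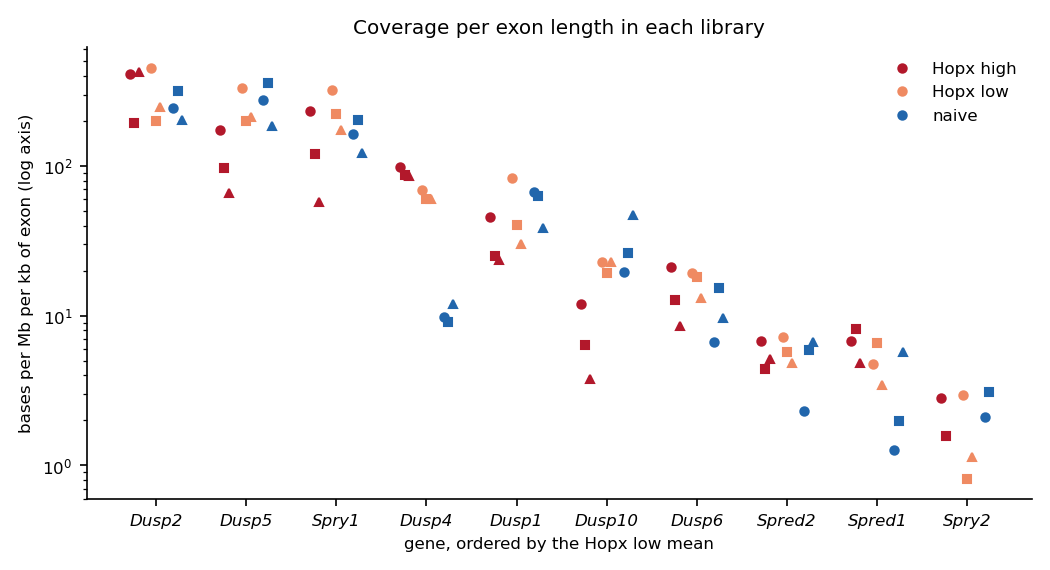
Level of each of the 10 genes in bases per Mb per kilobase of exon (log axis), with 1 point per library coloured by group and shaped by replicate, in Hopx high, Hopx low and naive cells. Values of 0 (Spry2 in 1 Hopx high and 1 naive library) are not drawn. Dusp2, Dusp5 and Spry1 have the highest group means, Dusp4 is set apart by its low naive level of 10.8, and Dusp10 by its low Hopx high level of 7.40.

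Dusp4, a nuclear phosphatase of ERK and JNK, was higher in both Hopx groups than in naive cells. It had 270, 238 and 234 bases per Mb in Hopx high replicates 1, 2 and 3, 188, 164 and 165 in Hopx low, and 27.0, 24.9 and 33.0 in naive libraries. The 3 groups did not overlap, with Hopx high at the top, Hopx low between and naive at the bottom. The gene lies on chromosome 8 (chr8:34807610-34819894, plus strand, GRCm38) and its group means were 247 ± 19.7, 172 ± 13.8 and 29.5 ± 4.94 bases per Mb in Hopx high, Hopx low and naive cells (SD, n = 3, 3 and 2). In limma on log2(bases per Mb + 1), with p adjusted by Benjamini-Hochberg over all genes tested, Dusp4 rose by 3.03 in Hopx high against naive (SE 0.45, 95% interval 2.10 to 3.97, adjusted p = 0.000485), an 8.18-fold difference. Against the same naive samples it rose by 2.51 in Hopx low (SE 0.45, interval 1.58 to 3.45, adjusted p = 0.0108), a 5.71-fold difference. These bulk values cannot tell fewer expressing cells from less RNA per cell. Between Hopx high and Hopx low the difference was 0.52 (SE 0.38, interval -0.25 to 1.29), which did not pass the test fitted to the 6 Hopx libraries (adjusted p = 0.656). That SE is drawn partly from the spread of other genes, and the same-numbered pairs differed by 0.52, 0.53 and 0.50. The call in Hopx low against naive was lost without Hopx low replicate 1 (adjusted p = 0.104) or replicate 2 (0.0827), with the replicate number as a block (0.0587) and in a fit to these 2 groups alone (0.136). Against naive in Hopx high it held in 21 of 22 alternatives, all but the fit to these 2 groups with the replicate block (adjusted p = 0.299). Without naive replicate 3 the rises were 3.20 in Hopx high and 2.68 in Hopx low.

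Dusp10, a phosphatase of p38 and JNK, fell in Hopx high against naive. Its values were 33.5, 17.9 and 10.5 bases per Mb in Hopx high libraries, 63.8, 53.7 and 63.4 in Hopx low, and 54.9, 73.0 and 132 in naive libraries. All 3 Hopx high libraries lay below every Hopx low and naive library, whereas Hopx low and naive overlapped. Means were 20.7 ± 11.7 in Hopx high, 60.3 ± 5.73 in Hopx low and 97.9 ± 48.0 in naive cells (SD, n = 3, 3 and 2). Against naive, Dusp10 fell by 2.24 on the log2 scale in Hopx high (SE 0.57, interval -3.44 to -1.05, adjusted p = 0.0305 in limma), so that its level was 4.74-fold lower. In Hopx low the difference from naive was -0.60 (SE 0.57, interval -1.80 to 0.59, adjusted p = 0.805). Hopx high against Hopx low gave -1.64, a 3.12-fold difference, with an adjusted p of 0.637 in the fit to all groups and 0.0548 in the fit to the 6 Hopx libraries (SE 0.42, interval -2.49 to -0.79). The call against naive was lost without Hopx high replicate 2 (adjusted p = 0.108) or 3 (0.121), Hopx low replicate 1 (0.0549) or 2 (0.0582) or naive replicate 2 (0.0596). It was also lost with the values as deposited (0.0532), with no filter (0.216), with the replicate block (0.106) and in a fit to these 2 groups without the block (0.0653) or with it (1.00). Without naive replicate 3 it held, with a smaller difference of -1.73 (adjusted p = 0.0279). Between Hopx high and Hopx low the 6-library difference passed without Hopx high replicate 1 (-2.05, adjusted p = 0.0326) and with quantile normalization (-1.41, adjusted p = 0.0464).

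Markers of B cells were low throughout, and their sum, like Dusp10, was lower in every Hopx high library than in any other library. Summed over 7 markers they reached 3.19 to 8.45 in Hopx high libraries, 19.0 to 24.3 in Hopx low libraries and 13.4 to 35.6 in naive libraries, in bases per Mb. Within Hopx high the order was the reverse of that of Dusp10. The sum was 3.19, 5.01 and 8.45 in replicates 1, 2 and 3, where Dusp10 had 33.5, 17.9 and 10.5. Cd79a, a subunit of the B cell receptor, was called lower in Hopx high against naive (-3.03, adjusted p = 0.00771 in limma) and against Hopx low in the 6-library fit (-2.10, adjusted p = 0.0320). Ebf1 was at 0 in 7 of the 9 libraries and Cd79b, Ms4a1 and Pax5 at 0 in 4 libraries each. Their part in the results for Dusp10 and for the other genes was not tested. Summed over 12 myeloid and dendritic cell markers the level was 40.8 to 159 in Hopx high, 61.0 to 118 in Hopx low and 21.1 to 61.2 in naive libraries. Most of it was Cst3, and Itgax was at 0 in 8 libraries and Xcr1 and Clec9a at 0 in all 9. Summed over 7 CD8 T cell and natural killer cell markers the level was 17.5 to 39.9 in Hopx high, 28.3 to 35.8 in Hopx low and 22.7 to 24.9 in naive libraries, with Cd8b1 the highest of them in every library and Cd8a at 0 in 8 libraries.

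Dusp5 and Dusp1, a nuclear ERK phosphatase and an immediate early phosphatase that acts mainly on p38 and JNK, had their lowest values in Hopx high too. With Dusp10 they are the phosphatases among the 10 genes that lay below Hopx low in each of the 3 same-numbered pairs, and the 250 bases before their annotated starts are shown for that reason (RefSeq, GRCm38.p6, 5′ to 3′ on the strand of the gene). The windows are chr19:53528895-53529144 on the plus strand for Dusp5, chr17:26508473-26508722 on the minus strand for Dusp1 and chr1:184034131-184034380 on the plus strand for Dusp10. Capitals mark matches to the motifs searched.
Dusp5: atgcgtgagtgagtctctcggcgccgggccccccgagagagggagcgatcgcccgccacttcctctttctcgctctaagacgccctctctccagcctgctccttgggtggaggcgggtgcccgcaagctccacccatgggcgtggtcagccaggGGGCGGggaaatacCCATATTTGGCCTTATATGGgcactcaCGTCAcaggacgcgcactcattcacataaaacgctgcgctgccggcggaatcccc
Dusp1: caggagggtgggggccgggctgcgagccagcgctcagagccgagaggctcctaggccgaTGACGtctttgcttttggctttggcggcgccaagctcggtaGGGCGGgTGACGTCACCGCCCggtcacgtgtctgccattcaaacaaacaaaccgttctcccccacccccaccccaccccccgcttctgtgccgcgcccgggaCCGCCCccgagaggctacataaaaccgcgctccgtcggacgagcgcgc
Dusp10: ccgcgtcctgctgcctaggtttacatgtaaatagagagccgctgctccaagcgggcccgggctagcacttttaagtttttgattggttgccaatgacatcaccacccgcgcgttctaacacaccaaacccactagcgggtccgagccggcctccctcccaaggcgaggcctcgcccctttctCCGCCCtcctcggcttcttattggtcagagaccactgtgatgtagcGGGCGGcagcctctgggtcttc

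Motifs were searched on both strands of 32851 such windows, which included 9 of the 10 genes, all but Dusp4. The CArG box, to which serum response factor binds, occurs in the Dusp5 window as 2 adjacent copies, CCATATTTGG at -82 to -73 and CCTTATATGG at -72 to -63, counted back from the start. It occurs in 1.47% of all windows and in none of the other 8. The full cyclic AMP response element TGACGTCA was found at -143 to -136 in Dusp1, and in 1.55% of all windows. Its core, TGACG, which the full element contains on both strands, was found 3 times in Dusp1, once each in Dusp5 and Spred2, and in 17.8% of all windows. The GC box GGGCGG was in 7 of the 9 windows, among them all 3 printed, and in 32.7% of all windows. In Dusp1 a GC box lies directly beside the full cyclic AMP response element, without overlap. The AP-1 motif TGANTCA (6.75% of all windows) and the ETS motif CCGGAA (12.0%) were in none of the 9. These are matches of letters, and no binding was measured.

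Dusp5 had 431, 241 and 162 bases per Mb in Hopx high libraries, 826, 491 and 527 in Hopx low, and 681, 892 and 456 in naive libraries. Every Hopx high library lay below every Hopx low and naive library. Its means were 278 ± 138 in Hopx high, 615 ± 184 in Hopx low and 621 ± 234 in naive cells (SD, n = 3, 3 and 2). The differences did not pass the test: -1.22 in Hopx high against naive (SE 0.51, adjusted p = 0.230 in limma) and -1.22 in Hopx high against Hopx low (interval -2.08 to -0.36, adjusted p = 0.256 in the 6-library fit). Hopx low and naive means differed by 0.00 on the log2 scale, with an interval of -1.07 to 1.06. An antisense gene, AC137853.2, overlaps exons of Dusp5, and no source states whether counting used strand.

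Dusp1 had 109, 59.1 and 56.1 bases per Mb in Hopx high libraries, 196, 96.2 and 71.7 in Hopx low, and 159, 149 and 91.1 in naive libraries. The groups overlapped, since Hopx high replicate 1 lay above naive replicate 3 and above Hopx low replicates 2 and 3. Hopx high differed by -0.73 from naive (SE 0.54, adjusted p = 0.599 in limma) and by -0.63 from Hopx low (SE 0.41, adjusted p = 0.621 in the 6-library fit). Neither passed.

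Dusp2 and Dusp6 did not separate the groups. Dusp2, a nuclear ERK phosphatase of activated lymphocytes and the most abundant of the 10 per length in both Hopx groups, had 669, 316 and 681 bases per Mb in Hopx high libraries, 735, 323 and 403 in Hopx low, and 393, 509 and 327 in naive libraries. The libraries of each Hopx group spread widely, and every naive library lay inside the range of Hopx high. Its differences were 0.45 in Hopx high against naive (interval -0.62 to 1.52, adjusted p = 0.774) and 0.20 against Hopx low (interval -0.70 to 1.09, adjusted p = 0.896 in the 6-library fit of limma). Dusp6, the cytoplasmic phosphatase specific for ERK, had 59.1, 35.4 and 23.7 in Hopx high, 53.8, 50.6 and 36.8 in Hopx low, and 18.6, 42.7 and 26.8 in naive libraries. All 3 groups overlapped, and its difference was 0.35 in Hopx high against naive (interval -0.80 to 1.50, adjusted p = 0.853) and 0.68 in Hopx low against naive (interval -0.47 to 1.83, adjusted p = 0.766). These intervals reach well to both sides of 0.

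Among the upstream inhibitors, Spry1 was abundant and Spry2 barely detected. Spry1, which in T cells is induced by receptor signalling, had 679, 349 and 167 bases per Mb in Hopx high libraries, 933, 647 and 505 in Hopx low, and 476, 588 and 357 in naive libraries. Hopx high spread widely and held both a value above all naive libraries and one below them. Means were 398 ± 259 in Hopx high, 695 ± 218 in Hopx low and 444 ± 124 in naive cells (SD, n = 3, 3 and 2). Hopx high differed from Hopx low by -0.98 (interval -1.90 to -0.05), which missed the threshold after adjustment (adjusted p = 0.478 in the 6-library fit of limma). Against naive it differed by -0.35 (adjusted p = 0.852), and Hopx low differed from naive by 0.63 (adjusted p = 0.789). Exons of Spry1 overlap Gm42922 on the other strand. Spry2 did not pass 6.47 bases per Mb in any library and was at 0 in Hopx high replicate 3 and naive replicate 3, where a read of 100 bases would be worth 0.492 and 0.346 bases per Mb. It was at 4.37 and 6.47 in the shallower naive replicates 1 and 2. No difference between groups passed the test for Spry2, with 0.28 in Hopx high against naive (interval -1.49 to 2.06, adjusted p = 0.933 in limma). The part of depth was not tested.

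Spred1 and Spred2 bind Ras and Raf and bring neurofibromin, a Ras GTPase activating protein, to the membrane. Spred1 had 46.0, 55.7 and 32.6 bases per Mb in Hopx high libraries, 32.2, 44.6 and 23.3 in Hopx low, and 8.57, 13.5 and 39.0 in naive libraries. Naive replicate 3 lay inside the range of both Hopx groups, and the other naive libraries lay below all 6. Hopx high differed from naive by 1.03 (SE 0.61, adjusted p = 0.462 in limma). Without naive replicate 3 this became 1.90 and passed (adjusted p = 0.0138), with naive cells then represented by a single sample that is assumed to vary like the other groups. In that fit 2465 of 10801 genes were called higher and the median of all genes was 0.67. Spred2 had 30.4, 19.5 and 23.0 in Hopx high, 31.9, 25.6 and 21.6 in Hopx low, and 10.2, 26.2 and 29.6 in naive libraries, overlapping in all comparisons. Its largest difference was 0.16 (Hopx low against naive, adjusted p = 0.964).

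**Figure D2:**
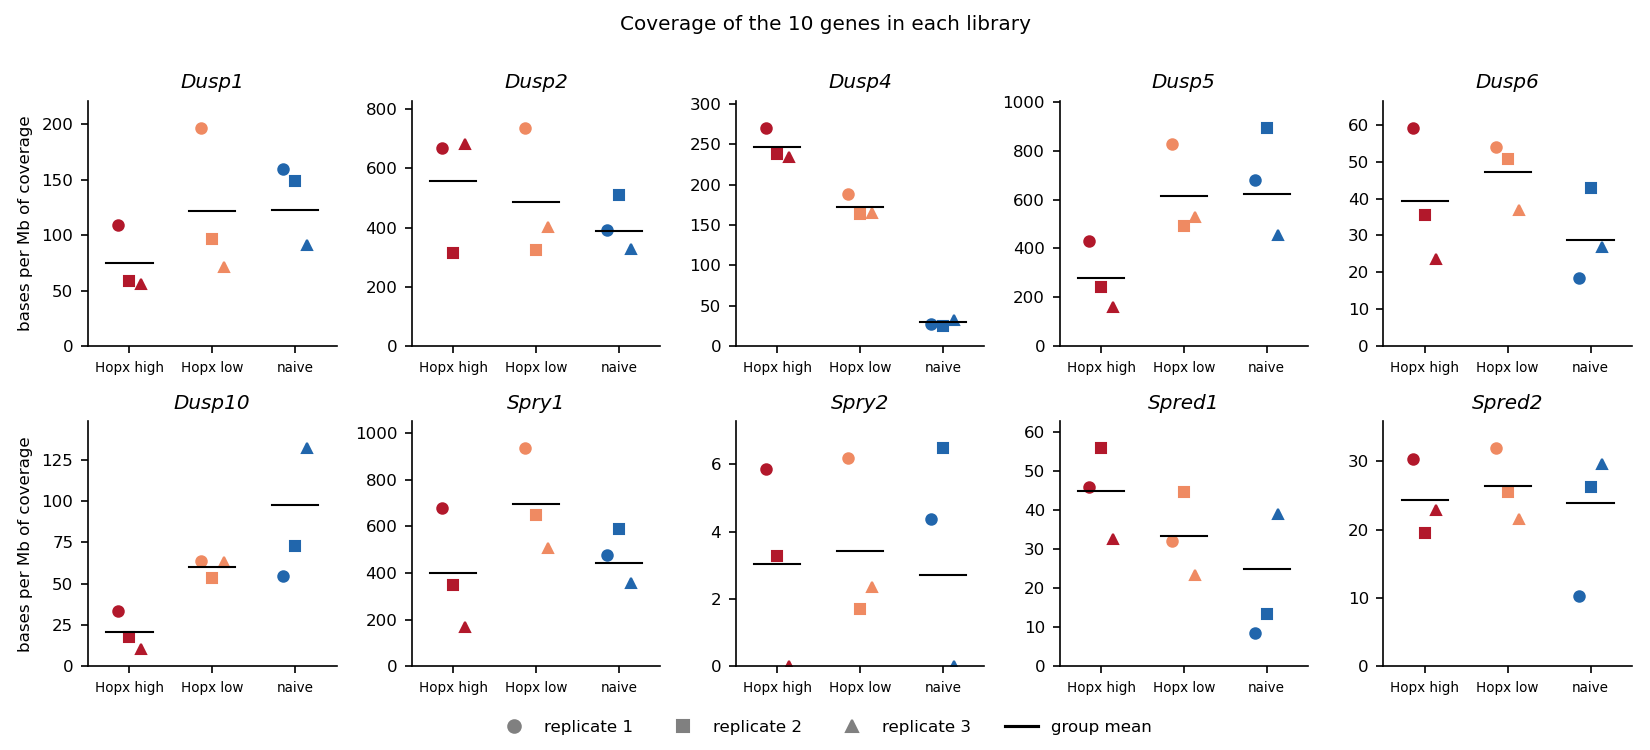
Bases per Mb in each library for the 10 genes, 1 panel each with its own axis, with Hopx high, Hopx low and naive libraries from left to right and the group mean as a bar. Dusp4 is the one gene with Hopx high above Hopx low above naive in all libraries, and for Dusp5 and Dusp10 the 3 Hopx high libraries lie below all others.

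Counted over the comparisons, 2 of the 10 genes passed in at least 1 of them, Dusp4 and Dusp10. In Hopx high against naive 1 of the 10 was called higher (Dusp4), where 3.3% of the 10825 genes tested were, and 1 was called lower (Dusp10), where 0.499% were. The Hopx high and naive libraries did not overlap for 1 gene above (Dusp4) and 2 below (Dusp5 and Dusp10), against 14.2% and 7.68% of all genes. In limma 3 of the 10 had an unadjusted p under 0.05 in that comparison (Dusp4, Dusp5 and Dusp10), as did 1675 of the 10825 genes. For Hopx low against naive 1 was called higher (Dusp4; 0.296% of all genes) and 0 lower (0.00924%), and the libraries did not overlap for 1 gene above (17.1%) and 0 below (2.36%). Dusp4 was the 1 member with an unadjusted p under 0.05 in that comparison, where 922 of the 10825 genes had one. In Hopx high against Hopx low 0 of the 10 were called by limma in the fit to all groups, which called 0% of all genes in either direction. In that fit 2 had an unadjusted p under 0.05 (Dusp5 and Dusp10), as did 487 of the 10825 genes. The fit to the 6 Hopx libraries called 0 of the 10, against 0.489% of 10846 genes higher and 0.148% lower. Here 3 had an unadjusted p under 0.05 (Dusp5, Dusp10 and Spry1), as did 1060 of the 10846 genes. The libraries did not overlap for 1 gene above (Dusp4) and 2 below (Dusp5 and Dusp10). Over all genes the shares were 4.49% above and 10.1% below among those tested in all groups, and 4.55% and 9.98% among those tested in the 6 libraries.

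The median difference of the 10 genes was 0.16 against 0.15 for all genes in Hopx high against naive, 0.43 against 0.38 in Hopx low against naive, and -0.36 against -0.25 in Hopx high against Hopx low. Scaling by the median gene gave a median of -0.14 for the 10 genes against 0.02 for all genes in Hopx high against naive, -0.00333 against 0.02 in Hopx low against naive, and -0.20 against -0.01 in Hopx high against Hopx low. Without naive replicate 3 the medians were -0.21 against 0.67 for all genes in Hopx high and 0.18 against 0.88 in Hopx low, both against naive. Under that scaling Dusp4 stood at 2.88 in Hopx high against naive (adjusted p = 0.00147 in limma) and 2.11 in Hopx low against naive (adjusted p = 0.0489), and Dusp10 at -2.41 in Hopx high against naive (adjusted p = 0.00308).

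**Figure D3:**
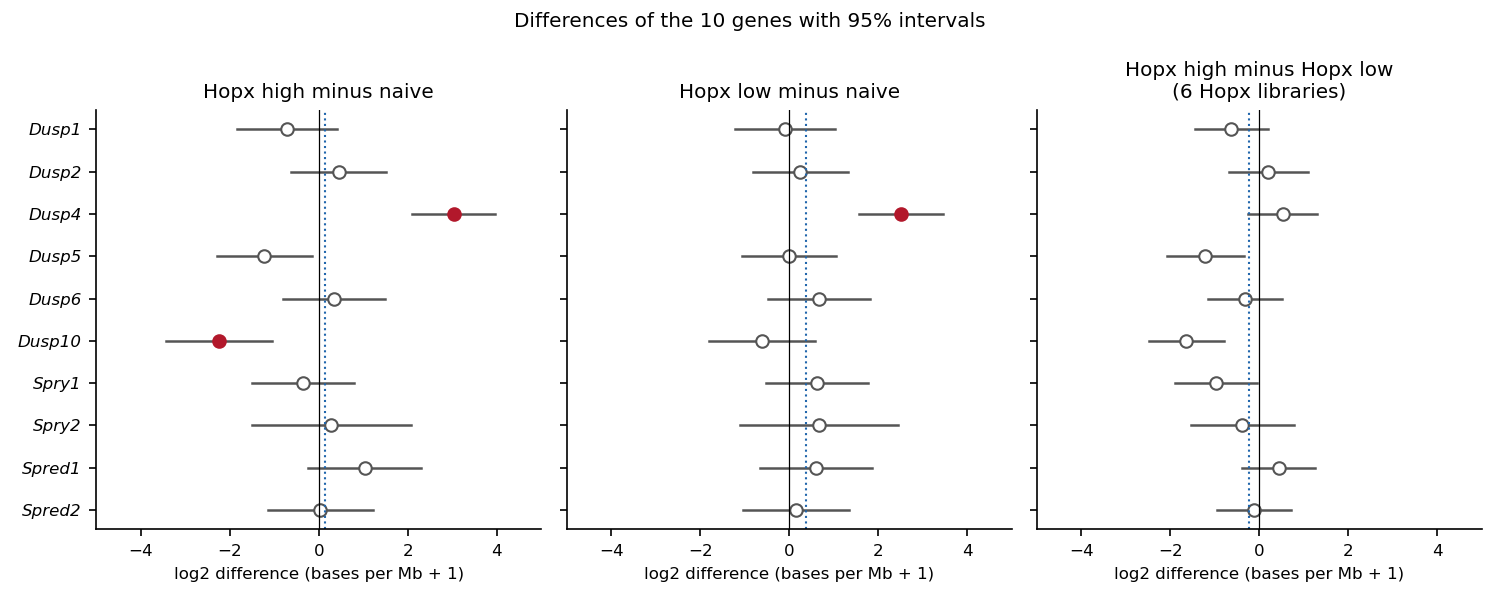
Difference on the log2(bases per Mb + 1) scale with its 95% interval for each of the 10 genes, in Hopx high against naive, Hopx low against naive and Hopx high against Hopx low; filled red points have an adjusted p under 0.05, and the dotted line is the median of all genes tested. Red points are Dusp4 at 3.03 and Dusp10 at -2.24 in Hopx high against naive, and Dusp4 at 2.51 in Hopx low against naive.

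Hopx high and Hopx low libraries with the same number deviated together from their group means, and were therefore also compared in pairs. Hopx high lay above Hopx low in all 3 pairs for 2 of the 10 genes (Dusp4 and Spred1), as for 11.6% of all genes tested in all groups and 11.8% of those tested in the 6 libraries. It lay below in all 3 pairs for 4 (Dusp1, Dusp5, Dusp10 and Spry1), as for 27.2% and 27.1% of them. The Dusp4 differences were nearly equal, at 0.52, 0.53 and 0.50 in pairs 1, 2 and 3. Those of Dusp10 were -0.91, -1.53 and -2.48, those of Dusp5 -0.94, -1.02 and -1.69, and those of Spry1 -0.46, -0.89 and -1.59. Pair 3 thus carried the widest gap for each of these 3 genes. For Dusp1 the widest gap was in pair 1, with -0.85, -0.69 and -0.35. Hopx high replicate 3, the shallowest Hopx library at 203 Mb, held the lowest value of its group for Dusp1, Dusp4, Dusp5, Dusp6, Dusp10, Spry1, Spry2 and Spred1. Hopx high replicate 1, the deepest at 800 Mb, held the highest for the same genes except Spred1, and for Spred2. Replicate 2 held the highest Spred1 value, and the lowest values of Dusp2 and Spred2. The part of depth in these gaps was not tested. With the replicate number as a block the 6-library fit gave Dusp10 an adjusted p of 0.0756, Dusp5 0.0743 and Spry1 0.187.

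**Figure D4:**
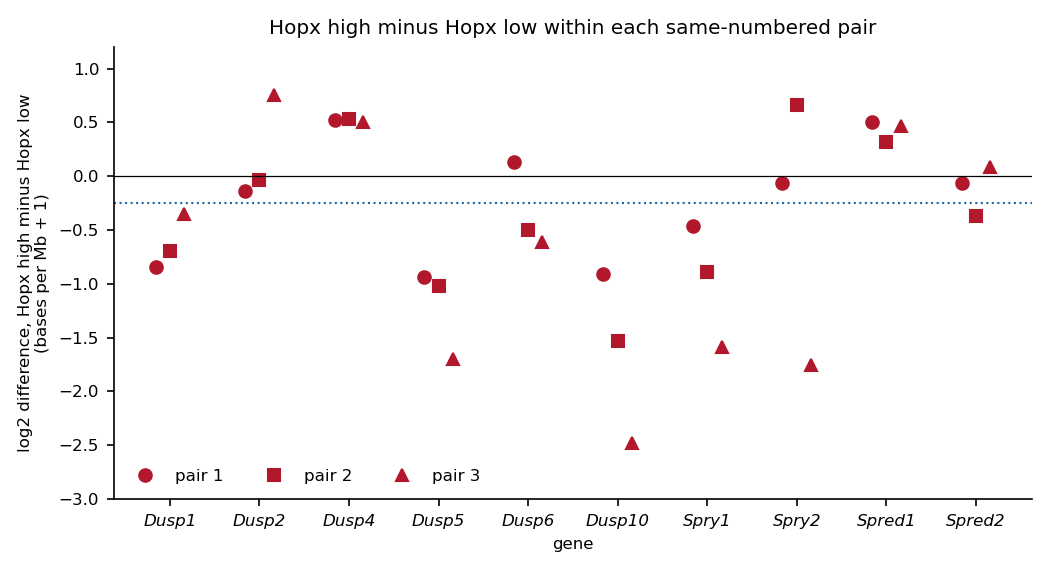
Hopx high minus Hopx low within each same-numbered pair, on the log2(bases per Mb + 1) scale, for the 10 genes, with 1 symbol per pair and the median of all genes as a dotted line. The 3 symbols of Dusp4 lie together between 0.50 and 0.53, and those of Dusp10 spread between -0.91 and -2.48 with pair 3 lowest.

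Of 63 other genes of the pathway that were tested, 2 were called higher and 2 lower in Hopx high against naive, 2 higher and 0 lower in Hopx low against naive, and 0 between Hopx high and Hopx low when all groups were fitted. Over all genes the shares called in Hopx high against naive were 3.3% higher and 0.499% lower, and in Hopx low against naive 0.296% higher; the counts in single lists below are of 1 gene each. None of the 4 other MAP kinase phosphatases passed. The most abundant of them, Dusp7, averaged 86.5 ± 52.3 bases per Mb in Hopx high, 107 ± 48.2 in Hopx low and 37.8 ± 22.9 in naive cells (SD, n = 3, 3 and 2). It differed from naive by 1.13 in Hopx high (adjusted p = 0.406 in limma), and Dusp16 by 0.41 (adjusted p = 0.855). Of 7 atypical dual specificity phosphatases, which lack the kinase-binding domain, 1 was called, Dusp14, a phosphatase that has been described as a brake on T cell receptor signalling. Dusp14 had 75.5, 46.0 and 22.2 bases per Mb in Hopx high libraries, 20.4, 14.6 and 8.95 in Hopx low, and 0, 1.62 and 0.273 in naive libraries. Its groups did not overlap in any comparison. It rose by 4.85 in Hopx high against naive (adjusted p = 0.000329 in limma) and by 3.30 in Hopx low against naive (adjusted p = 0.0391). The second call held in 10 of 22 alternatives, and was lost without Hopx high replicate 1 (0.101), 2 (0.114) or 3 (0.0907), Hopx low replicate 1 (0.285) or 2 (0.197) or naive replicate 1 (0.0765). It was also lost with the replicate block (0.138) and in the fit to these 2 groups without the block (0.293) or with it (0.0696), and with quantile normalization, no filter or a pseudocount of 5. The first call was lost with no filter (0.0559) and in the fit to these 2 groups with the block (0.378). Hopx high against Hopx low gave 1.55 (adjusted p = 0.120 in the 6-library fit). The other Sprouty and Spred genes, Spry4 and Spred3, did not reach the filter in the fit to all groups.

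The core of the cascade gave no calls, where Hopx high against naive called 3.3% of all genes higher and 0.499% lower. This holds for 8 MAP kinases, with Mapk14, which encodes p38 alpha, at -1.02 (adjusted p = 0.286 in limma) in Hopx high against naive. It holds for 9 MAP kinase kinases and Raf genes, with Map2k2 at -0.53 (adjusted p = 0.707). It holds also for 12 genes of Ras activation in T cells, with the adaptor Lat at 0.26 (adjusted p = 0.878) and Rasgrp1, the exchange factor that loads Ras with GTP, at 1.35 (adjusted p = 0.460). As for Spred1, the naive libraries were split for Rasgrp1. It had 72.8 to 86.9 bases per Mb in Hopx high, 72.5 to 117 in Hopx low, and 5.76, 6.59 and 134 in naive replicates 1, 2 and 3.

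Of 7 Ras GTPase activating protein genes, 1 was called lower in Hopx high against naive. Rasa3 had 67.4, 58.2 and 65.2 bases per Mb in Hopx high libraries, 147, 116 and 197 in Hopx low, and 125, 157 and 365 in naive libraries, a difference from naive of -1.82 (adjusted p = 0.0478 in limma). Hopx high did not overlap the other groups. The call held in 6 of 22 alternatives, and was lost in each fit without 1 of the Hopx libraries or without naive replicate 2 or 3 (adjusted p of 0.0624 to 0.159), with the replicate block (0.0813), and in the fit to these 2 groups without the block (0.105) or with it (1.00). The Rasa3 call was also lost with the values as deposited (0.0692), no filter (0.223) and a filter of 5 bases per Mb (0.0518). So it was with a pseudocount of 0.1 (0.0595) and without the variance trend (0.0921). Of 16 genes known to be induced by ERK, 1 was called higher and 1 lower in Hopx high against naive. Etv4, an ETS transcription factor, had 56.5, 53.5 and 33.4 bases per Mb in Hopx high libraries, 22.3, 21.9 and 17.8 in Hopx low, and 1.12, 0 and 0.661 in naive libraries. As for Dusp4, the groups did not overlap. Etv4 rose by 4.88 in Hopx high (adjusted p = 0.000115) and by 3.74 in Hopx low (adjusted p = 0.00478) against naive, the second call being lost with a pseudocount of 5 (0.0691), the replicate block (0.0698) and only the groups compared (0.163), and the first in the fit to these 2 groups with the block (0.378). Egr1, an immediate early transcription factor, had 140, 92.6 and 77.4 in Hopx high, 246, 154 and 150 in Hopx low, and 417, 560 and 286 in naive libraries. It fell by 1.89 in Hopx high against naive (adjusted p = 0.0310 in limma). Its call held in 14 of 22 alternatives, and was lost without Hopx high replicate 1 (0.0512), 2 (0.117) or 3 (0.104) or Hopx low replicate 2 (0.0582), and in the fit to these 2 groups without the block (0.0697) or with it (1.00). The Egr1 call was also lost with no filter (0.167) and without the variance trend (0.0729).

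**Figure D5:**
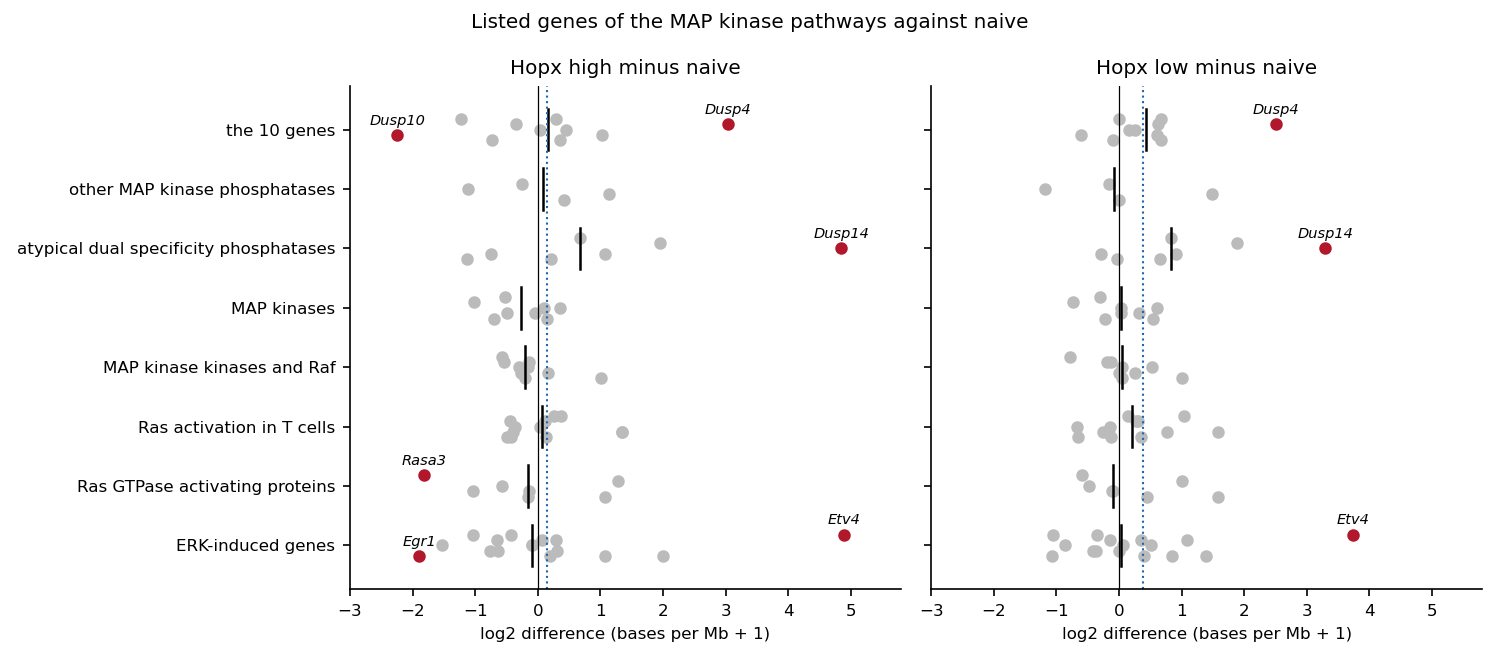
Difference from naive on the log2(bases per Mb + 1) scale in Hopx high (left) and Hopx low (right) for every tested gene of the pathway lists, 1 row per list, with red points for an adjusted p under 0.05, a black bar at each list's median and a dotted line at the median of all genes. On the left the red points other than Dusp4 and Dusp10 are Dusp14 at 4.85, Etv4 at 4.88, Rasa3 at -1.82 and Egr1 at -1.89.

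Genes whose profile was most like that of a member were ranked by Pearson's r of log2(bases per Mb + 1) over the 8 samples, among 7494 genes with a mean of at least 10 bases per Mb. For Dusp4 they were Etv4 (r = 0.991), Zbtb32 (0.990) and Ptprs (0.990). For Dusp10 they were Baiap2 (0.992), Itpkb (0.990) and Dnajb6 (0.988). Tbc1d22b (0.989), Snx33 (0.983) and Zfp384 (0.981) were closest to Dusp5, and Cant1 (0.989), Adrbk1 (0.987) and Tmem185b (0.986) to Spry1. Among the members themselves Dusp1 and Dusp5 (r = 0.876), Dusp6 and Spry1 (0.855), Dusp5 and Spry1 (0.852) and Dusp5 and Dusp10 (0.811) were the most alike, and Dusp4 and Dusp10 the most unlike (-0.661). The points of each correlation share libraries and their depth, and an r as high as these 4 was reached by 1.73% to 8.61% of the genes, depending on the pair and on which of its members was compared. These values describe 8 samples.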

How the data were processed

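RNA was measured in 9 libraries, 3 each of Hopx high, Hopx low and naive cells. Ribosomal RNA was depleted before Ion Torrent total RNA libraries were built, per the labels' protocols. The submitters' processing notes name bedtools and mm10. How reads were aligned, which annotation was used and whether strand was used is stated by no source used here.

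The authors deposited a coverage signal per gene and library in 1 table. Each signal is the gene's summed bases with 1 base added, as a share of the library's total, times the mean total of 333 Mb. Bases came back whole in 100% of values (tolerance 1e-06) and were set per Mb of the library, so that a gene without coverage is at 0. Reads could not be recovered. The authors' ratio (fold) of group means and their unadjusted p-value stand in the same deposited table.

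Naive replicates 1 and 2 (1A and 1B) were averaged, because their chi-square ratio was 0.971 with reads taken as 100 bases, whereas other pairs within groups gave 6.35 to 18.2. limma 3.58.1 (R 4.3.3, Python 3.11.15) was run on log2(bases per Mb + 1) for genes whose mean reached 1 base per Mb, with a variance trend and the 3 groups in 1 fit. Tests were two-sided, and p was adjusted by Benjamini-Hochberg across all genes, with a threshold of 0.05. Hopx high and Hopx low were also compared in a fit to their 6 libraries. The scale understates fold changes of low genes. The code was tested on simulated data. With 3 against 3 samples an exact permutation test cannot go below p = 0.1, and none was used.

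Same-numbered Hopx high and Hopx low libraries deviated together (r = 0.443, 0.420 and 0.168 over 7837 genes), so the numbers were taken to pair them. The mean of naive replicates 1 and 2 correlated best with Hopx low replicate 1 (r = 0.875), and naive replicate 3 with Hopx low replicate 3 (0.891). Whether the naive numbers pair with them could still not be settled with 2 naive samples. The replicate block used in alternatives against naive gives the averaged naive sample number 1, so in a fit to 2 groups only numbers 1 and 3 carry the difference from naive. The members and the gene lists were chosen with earlier results of these data known. All members were named, and from each other list up to 4 called genes with the smallest p, or up to 2 with the highest mean if none was called. Some genes that this rule names are not reported here. Among 128 listed genes, 2 had no row and 1 was found under an older symbol. Exon lengths are from GENCODE, gene positions and the 250 bases before each start from RefSeq (GRCm38).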

Additional observations from a re-analysis of the deposited data

How the results depend on the processing

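Each result was recomputed under up to 22 alternatives: other scalings, pseudocounts and filters, a fit without the variance trend, the replicate block, only the groups compared, and each library left out. The Gas5 alternative was chosen after seeing the data. The count of members called lower in Hopx high against naive was 0, not 1, with the values as deposited, no filter, the replicate block, only the groups compared and only the groups compared with the replicate block, and 0 to 1 with 1 library left out. The count called higher there was 0 with only the groups compared and the replicate block, and 1 to 2 with 1 library left out. In Hopx low against naive the count called higher was 0, not 1, with the replicate block and with only the groups compared, and 0 to 1 with 1 library left out. In the fit to the 6 Hopx libraries the count called lower was 1, not 0, with quantile normalization, and 0 to 1 with 1 library left out. The cause was not tested. The members' median difference in Hopx high against naive was -0.23 with quantile normalization, and -0.21 to 0.42 with 1 library left out. For Hopx low against naive it was -0.00333 when scaled by the median gene, -0.053 with quantile normalization and 0.13 to 0.63 with 1 library left out. Between Hopx high and Hopx low it was -0.80 to -0.06 with 1 library left out.

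Signs turned for some members whose differences did not pass the test. In Hopx high against naive, Spry2 was -0.16 when scaled by the median gene, -0.40 with quantile normalization and -0.15 with naive replicates 1 and 2 kept separate, and Spred2 was -0.12, -0.064 and, with Gas5 left out of the totals, -0.12. In Hopx low against naive, scaling by the median gene gave Dusp2 -0.16 and Spred2 -0.24, quantile normalization gave Spry2 -0.17 and Spred2 -0.20, and leaving Gas5 out gave Spred2 -0.014. The replicate block there gave Dusp1 0.020 and Dusp5 0.090, and with only the groups compared 0.00443 and 0.14. In Hopx high against Hopx low, Spred2 was 0.12 when scaled by the median gene and 0.14 with quantile normalization in the fit to all groups, and 0.13 under both in the 6-library fit. With 1 library left out, Spry1 ranged from -0.85 to 0.16, Spry2 from -1.06 to 1.10 and Spred2 from -0.21 to 0.42 in Hopx high against naive. Between Hopx low and naive Dusp1 ranged from -0.51 to 0.21, Dusp2 from -0.090 to 0.50, Dusp5 from -0.39 to 0.14, Spry2 from -0.67 to 0.96 and Spred2 from -0.095 to 0.54. Between Hopx high and Hopx low Dusp2 ranged from -0.055 to 0.56, Spry2 from -0.96 to 0.43 and Spred2 from -0.29 to 0.022.

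Over all genes, 357 were called higher and 54 lower in Hopx high against naive. These were 508 and 197 when scaled by the median gene, 458 and 273 with quantile normalization, 408 and 130 with Gas5 left out of the totals, 51 and 7 with no filter, 275 and 26 with the values as deposited, 271 and 25 with the replicate block, 345 and 35 with a pseudocount of 0.1, 294 and 30 with only the groups compared, 36 and 5 with only the groups compared and the replicate block, and 137 to 2465 and 13 to 241 with 1 library left out (most without naive replicate 3). Hopx low against naive gave 32 and 1 calls, and 126 and 8 with only the groups compared and the replicate block, 11 and 1 with the block alone, 4 and 1 with only the groups compared, 6 and 1 with no filter, 56 and 0 with the values as deposited, 57 and 1 with a pseudocount of 0.1, 164 and 2 with naive replicates 1 and 2 separate, and 2690 and 83 without naive replicate 3. The fit to all groups called 0 between Hopx high and Hopx low, and 45 and 12 without naive replicate 3. The 6-library fit called 53 and 16, and 60 and 15 with the replicate block, 7 and 2 with the values as deposited, 0 and 1 with no filter, 23 and 5 without the variance trend, 32 and 9 with a pseudocount of 0.1, 41 and 5 when scaled by the median gene, 77 and 11 with quantile normalization, 38 and 8 with Gas5 left out, and 3 to 61 and 2 to 22 with 1 library left out. In naive replicate 1 a read of 100 bases would be worth 1.58 bases per Mb, which limits what low genes such as Spry2 can show.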

Other observations

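The authors' deposited table gives ratios of group means on the linear scale with unadjusted p-values. There naive replicates 1 and 2 enter the naive mean as separate samples, whereas the differences above count them as 1. For Dusp4 the authors' deposited table has a ratio of 8.73 for Hopx high over naive (p = 4.68e-05), 6.08 for Hopx low over naive (p = 6.53e-05) and 1.44 for Hopx high over Hopx low (p = 0.00569). For Dusp10 the authors' deposited table has a ratio of 0.239 for Hopx high over naive (p = 0.0527) and 0.343 for Hopx high over Hopx low (p = 0.00627). Of the 10 members, the authors' deposited table gives a p under 0.05 for 1 (Hopx high over naive), 1 (Hopx low over naive) and 2 (Hopx high over Hopx low), as for 7.05%, 6.32% and 3.82% of all rows.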
